A study of Drosophila melanogaster with 6 samples.

Results

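The Turandot stress peptides and the JAK-STAT signalling genes that act around them were examined in whole larvae homozygous for a mutant allele of Cdk8. The genes were chosen by name, as the Turandot genes TotA, TotB, TotC, TotM and TotX, the unpaired ligand genes upd2 and upd3, the receptor gene dome, the transcription factor gene Stat92E and the feedback gene Socs36E. All 10 had a row among the 17562 genes of the count table. The tested larvae were homozygous for cdk8K185, a null allele of Cdk8 that also removes part of the neighbouring gene I-2. The paper describes a cdk8K185 stock that had been crossed repeatedly into the w1118 background. It names another data series for its RNA-seq, so whether that history holds for the larvae used here is not known. The control larvae were w1118, a strain with a mutant white gene. Both genotypes were taken at the wandering stage of the third instar, when larvae leave the food before pupariation, and each of the 3 libraries per genotype came from a pool of 10 larvae. The mutant depends on maternal CDK8 for its early development and does not live past the pupa, and the sex of the pooled larvae was not given.

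In Drosophila the unpaired proteins are secreted cytokines that bind the receptor Domeless, which signals through the Janus kinase Hopscotch to the transcription factor Stat92E. Stat92E in turn switches on genes that include Socs36E, whose product dampens the pathway. The pathway is known for its work in blood cells, gut repair, imaginal disc growth and the fat body response to infection and injury. Turandot genes encode small secreted proteins that accumulate in haemolymph after heat, infection, wounding and other stress, and in adult fat body TotA is a standard readout of JAK-STAT activity. CDK8 is a kinase that binds the Mediator complex, and in mammalian cells it is able to phosphorylate STAT proteins.

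The libraries held 9208564 to 11724703 counts. The Cdk8 transcript was at 4.73, 6.46 and 7.22 CPM (counts relative to the library total scaled by TMM, a normalization against differences in RNA composition) in cdk8K185, against 10.1, 9.53 and 8.83 CPM in w1118, and I-2 was at 5.16 to 5.58 CPM in cdk8K185, against 27.2 to 34.6 CPM in w1118, so that both genes were lower in every library labelled cdk8K185. Cdk8 still had 6.14 ± 1.28 CPM in cdk8K185 and 9.49 ± 0.643 CPM in w1118 (SD, n = 3 each), and its call (edgeR adjusted p 0.0344) was lost with library totals as scaling (0.16) and in every refit that left out 1 library except the one without cdk8K185 replicate 3 (0.0571 to 0.0885). Glue genes of the salivary gland differed strongly between the genotypes. The 6 glue genes together made up 1688 to 2644 CPM in cdk8K185, against 28704 to 35153 CPM in w1118, and all 6 were called lower. Of 7 fat body markers 3 were called lower (Lsp1gamma, Fbp1 and apolpp), with a sum of 21306 to 44363 CPM in cdk8K185, against 71258 to 77056 CPM in w1118. Of 7 plasmatocyte markers NimC1 was called, and it was higher, while their sum was 630.4 to 755 CPM in cdk8K185, against 678 to 781 CPM in w1118. Crystal cell markers summed to 164 to 429 CPM in cdk8K185, against 561 to 910.3 CPM in w1118, with PPO1 and lz called lower, and lamellocyte markers to 58.7 to 64.4 CPM in cdk8K185, against 31.8 to 48.4 CPM in w1118, with atilla called higher and ItgaPS4 lower. Midgut markers summed to 6892 to 10279 CPM in cdk8K185, against 5771 to 9420.4 CPM in w1118, with betaTry and Mal-A1 called higher. Imaginal disc markers summed to 176 to 201 CPM in cdk8K185, against 149 to 169.9 CPM in w1118, with nub and rn called higher and eya lower. In either direction, 100% of the glue genes and 42.9% of the fat body markers were called, against 36.9% of all genes tested. The share was 66.7% for the 3 crystal cell and for the 3 lamellocyte markers. It was near or below that of all genes for plasmatocyte (14.3%), midgut (25% of 8) and imaginal disc markers (37.5% of 8). Several of these calls depended on single libraries. Leaving out 1 library at a time, edgeR lost Lsp1gamma without cdk8K185 replicate 2 or 3 or w1118 replicate 2 or 3 (adjusted p 0.07 to 0.0841), atilla without cdk8K185 replicate 1 (0.0567), ItgaPS4 without cdk8K185 replicate 1 or 2 or w1118 replicate 1 (0.0543 to 0.0634), and rn in every refit but that without w1118 replicate 1 (0.0589 to 0.0937). The part of these cell types in the results below was not tested.

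The ligand genes, the receptor gene, the feedback gene and TotC were higher in cdk8K185 larvae, whereas the most abundant Turandot gene and the genes for the kinase and the transcription factor were not called. Of the 10 genes, 5 had an edgeR adjusted p under 0.05 and all 5 were higher in cdk8K185, namely upd2, upd3, dome, Socs36E and TotC. Only Socs36E and TotC among these were called in all 13 alternative settings. None was called lower by edgeR or limma-voom, 1 (Stat92E) was lower at an unadjusted p under 0.05 in edgeR, and DESeq2 called that gene. Over all 10632 genes tested, 36.9% were called, 19.9% as higher and 17% as lower, so single calls are to be read against that background. At least 2-fold higher were upd2, upd3, Socs36E and TotC, 4 of the 7 that were tested, against 7.9% of all genes tested. The filter on low counts passed 7 of the 10 genes, and upd2 and upd3 passed it through the cdk8K185 libraries alone, so that these had to be higher there in order to be tested. Their place among the genes called higher or at least 2-fold higher was therefore partly set by the filter. For 7 of the 10 genes the values of the genotypes were fully apart, with cdk8K185 above w1118 for 6 and below it for Stat92E. Of the 7 genes that passed the filter, cdk8K185 was above w1118 for 5 (TotB did not pass). Among all tested genes cdk8K185 lay wholly above w1118 for 29.2% and wholly below for 24.4%. Because RNA came from whole larvae, fewer cells of a type and less RNA per cell cannot be told apart for any of these genes. Whether the genotypes were equally far in development within the wandering stage was not tested. A difference in timing therefore cannot be told apart from the other effects of the genotype.

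**Figure D1:**
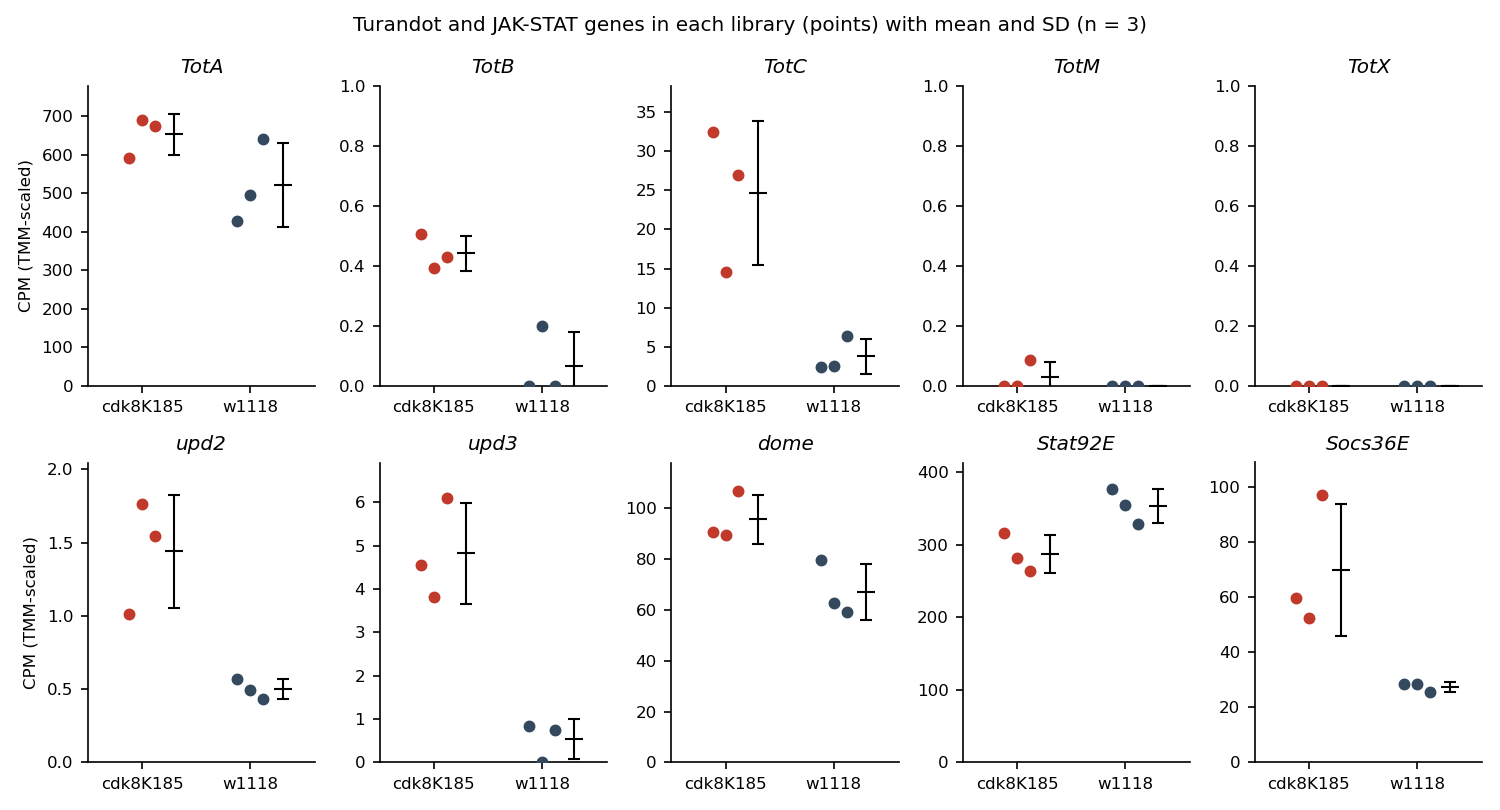
CPM after TMM scaling (vertical axis, a scale of its own in each panel, starting at 0) for the 10 genes in the 3 cdk8K185 libraries (red points) and the 3 w1118 libraries (dark points), with the mean and SD beside them. The points of the genotypes are apart for upd2, upd3, dome, Socs36E, TotC, TotB and Stat92E, and overlap for TotA, while TotM and TotX are at or near 0.

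The ligand genes were low in both genotypes and higher in cdk8K185. The 3 unpaired genes lie in one stretch of the X chromosome in dm6, with upd2 at X:18240654-18243284 on the minus strand, upd3 at X:18277233-18284596 on the plus strand and upd1 at X:18305354-18309291 on the minus strand, 33948 and 20757 bases apart. The cytokine gene upd3, which haemocytes and stressed gut cells are known to express, had 54, 39 and 71 counts in cdk8K185, against 9, 0 and 7 counts in w1118. In CPM these were 4.56, 3.82 and 6.10 in cdk8K185, against 0.851, 0 and 0.754 in w1118. Every mutant library was thus above every control library, and 1 control library held no count. The log2 fold change of upd3 was 3.15 ± 0.75 SE, an 8.87-fold difference (edgeR adjusted p 0.0161). The call was lost without cdk8K185 replicate 1 at nearly the same fold (log2 fold change 3.17, edgeR adjusted p 0.0579).

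The gene upd2, whose product the fat body releases in fed animals, had 12, 18 and 18 counts in cdk8K185, against 6, 5 and 4 counts in w1118. Its level was 1.44 ± 0.385 CPM in cdk8K185 and 0.498 ± 0.0682 CPM in w1118 (SD, n = 3 each). The libraries did not overlap, and the log2 fold change was 1.50 ± 0.43 SE (edgeR adjusted p 0.0313). At this depth the call was fragile. Without any single library, in 6 refits out of 6, it was lost at log2 fold changes of 1.34 to 1.70 (edgeR adjusted p 0.0575 to 0.103), and neither DESeq2 (adjusted p 0.0841) nor limma-voom (adjusted p 0.0538) made it.

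The third ligand gene, upd1, belonged to the list of other pathway genes. It had 33, 33 and 67 counts in cdk8K185, against 18, 19 and 16 counts in w1118 (edgeR adjusted p 0.0422 at a log2 fold change of 1.15 ± 0.36 SE). The call held without cdk8K185 replicate 1 and was lost without cdk8K185 replicate 2 or 3 or any w1118 replicate (edgeR adjusted p 0.0563 to 0.137), and neither DESeq2 (adjusted p 0.0522) nor limma-voom (adjusted p 0.0726) made it. Leaving out cdk8K185 replicate 3, the library with 67 counts, gave the smallest log2 fold change of upd1, 0.78. Together the unpaired genes had 99, 90 and 156 counts in cdk8K185, against 33, 24 and 27 counts in w1118. Of these counts upd3 made up 54.5%, 43.3% and 45.5% in cdk8K185, against 27.3%, 0% and 25.9% in w1118.

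The receptor gene dome and the gene beside it differed in opposite directions. Domeless is the signalling receptor for the unpaired ligands, and the product of et, eye transformer, is a related receptor that lowers signalling. In dm6 dome lies at X:19676061-19683518 and et at X:19672312-19675891, both on the minus strand and 169 bases apart. The gene et overlaps Zw and an INE-1 element, and how reads from the overlap were counted is not known. The level of dome was 90.5, 89.5 and 106.7 CPM in cdk8K185, against 79.7, 62.5 and 59.2 CPM in w1118. Its log2 fold change was 0.51 ± 0.14 SE, or 1.42-fold (edgeR adjusted p 0.0258). By contrast, et was at 15.9, 13.0 and 14.2 CPM in cdk8K185, against 19.0, 22.2 and 20.03 CPM in w1118, a log2 fold change of -0.51 ± 0.12 SE (edgeR adjusted p 0.0159). Neither gene overlapped between the genotypes.

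Both calls were close to the threshold. The dome call was lost without cdk8K185 replicate 1 (edgeR adjusted p 0.0614), cdk8K185 replicate 3 (0.0761), w1118 replicate 2 (0.0773) or w1118 replicate 3 (0.0612). The et call was lost without cdk8K185 replicate 2 (edgeR adjusted p 0.0528), cdk8K185 replicate 3 (0.0543) or w1118 replicate 2 (0.0551), and with library totals as scaling (edgeR adjusted p 0.0926 at a log2 fold change of -0.29). The number of dome counts per et count does not depend on any scaling. It was 5.70, 6.87 and 7.52 in cdk8K185, against 4.19, 2.81 and 2.96 in w1118, so that the mean ratio was 2.02 times as large in the mutant. The exact two-sided permutation test gave p = 0.1, the smallest that 3 libraries against 3 can give. Since dome was above and et below in every cdk8K185 library, the ratio had to separate. Its p-value was thereby fixed and adds nothing to the values of the single genes.

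Transcripts of the kinase and of the transcription factor were not called. The Janus kinase gene hop (X:11360930-11368098, minus strand) was at 54.1, 51.0 and 49.0 CPM in cdk8K185, against 57.9, 53.7 and 44.3 CPM in w1118, with a log2 fold change of -0.02 and a 95% interval from -0.29 to 0.26 (edgeR adjusted p 0.915). With library totals the value was 0.19, and library totals raised the log2 fold changes of all genes by a median of 0.22, so relative to that shift hop was close to 0 there too. Stat92E (3R:20535323-20552311, minus strand) was at 316, 281 and 264 CPM in cdk8K185, against 376, 354 and 329 CPM in w1118. The mutant libraries were all below the control libraries, but the difference was small, a log2 fold change of -0.30 with a 95% interval from -0.56 to -0.04, and it missed the threshold (edgeR adjusted p 0.0727). DESeq2 called Stat92E lower (log2 fold change -0.33, adjusted p 0.0309), and with library totals as scaling the value was -0.09 (edgeR adjusted p 0.572). Relative to the same shift Stat92E was lower there too.

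Socs36E, whose protein dampens the pathway and which is itself a target of Stat92E, was higher in the mutant. In dm6 the gene lies at 2L:18138675-18152417 on the minus strand and overlaps lncRNA:CR44478. It was at 59.9, 52.6 and 97.4 CPM in cdk8K185, against 28.5, 28.5 and 25.5 CPM in w1118. The control libraries were close together, while cdk8K185 replicate 3 stood well above the other 2 mutant libraries. The log2 fold change was 1.35 ± 0.23 SE, or 2.54-fold (edgeR adjusted p 0.0052), and it was called in all 13 alternatives, with log2 fold changes from 1.06 to 1.57. The lowest came without cdk8K185 replicate 3 (log2 fold change 1.06). The overlapping lncRNA gene held at most 4 counts in any library, but how reads from the overlap were counted is not known. Socs36E counts per Stat92E count were 0.190, 0.187 and 0.369 in cdk8K185, against 0.0756, 0.0805 and 0.0777 in w1118 (exact permutation test, two-sided, p = 0.1, the smallest this design gives). Since Socs36E was above and Stat92E below in every cdk8K185 library, this ratio had to separate too, and its p-value was fixed.

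The other genes of the pathway were a list of 15 chosen by role, all of which were tested. In cdk8K185, 5 of them were called higher and 1 lower, which is 40% called against 36.9% of all genes, and the median log2 fold change of the list was 0.08 against 0.02 over all genes tested. Besides upd1 and et, the called genes were Socs44A, another gene of the SOCS family (55.1 ± 2.97 CPM in cdk8K185 and 35.4 ± 5.63 CPM in w1118, SD, n = 3 each, edgeR adjusted p 0.00829 at a log2 fold change of 0.64 ± 0.13 SE), asrij, which encodes an endosomal protein of blood cell progenitors (edgeR adjusted p 0.0192 at a log2 fold change of 0.59 ± 0.15 SE), ken, a repressor of some STAT targets (edgeR adjusted p 0.00764 at 0.53 ± 0.11 SE), and CycD, the cyclin partner of Cdk4 (edgeR adjusted p 0.0147 at 0.43 ± 0.10 SE). Socs44A, asrij and ken were called in all 13 alternatives. CycD was lost without cdk8K185 replicate 2 (edgeR adjusted p 0.0616), cdk8K185 replicate 3 (0.0525) or w1118 replicate 2 (0.0508). In number, the list gave 3 calls without cdk8K185 replicate 2 and 3 without cdk8K185 replicate 3. The phosphatase gene Ptp61F (log2 fold change 0.17), the PIAS gene Su(var)2-10 (0.08) and Socs16D (0.03) had edgeR adjusted p values of 0.223, 0.525 and 0.865.

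**Figure D2:**
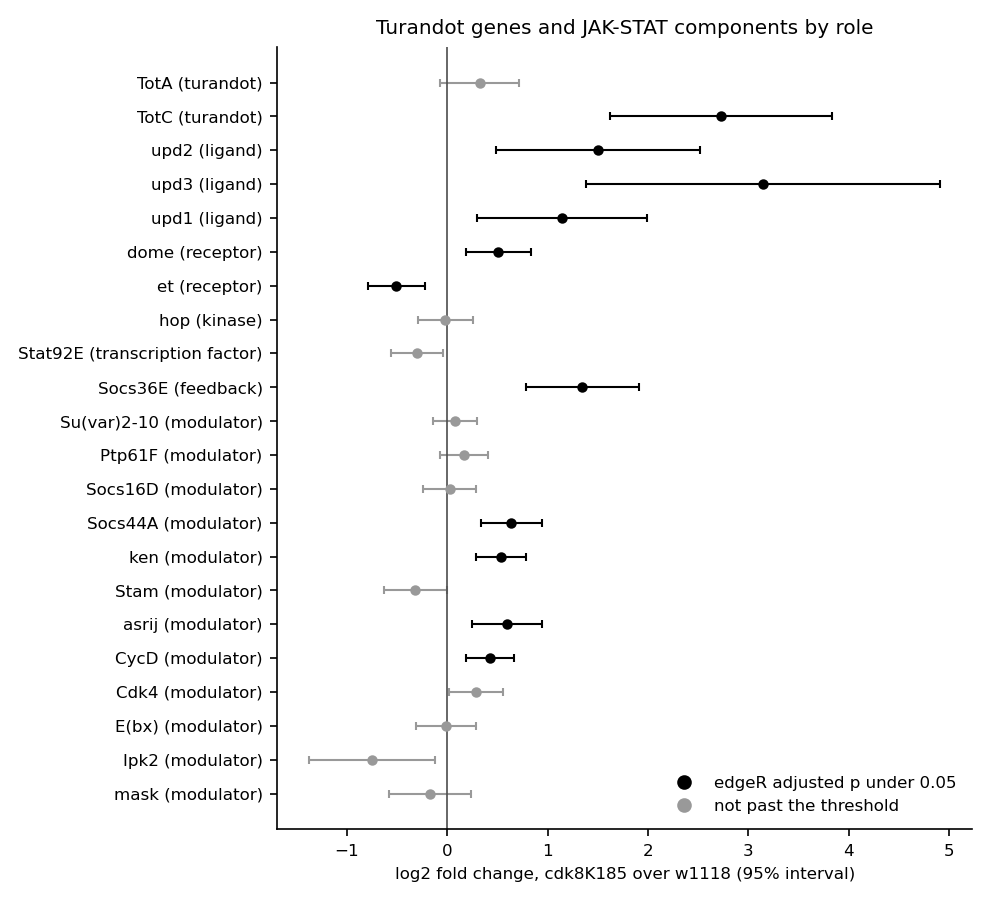
Log2 fold change of cdk8K185 over w1118 (horizontal axis) with its 95% interval for the 2 Turandot genes tested and 20 JAK-STAT genes, ordered by role. Black points had an edgeR adjusted p under 0.05 and grey points did not: the 3 ligand genes, dome and Socs36E are to the right of 0, et is to the left, and the interval of hop crosses 0.

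The Turandot genes differed among themselves in level far more than between the genotypes. In dm6 a cluster on 3R holds TotA (3R:20871036-20871700), TotC (3R:20872988-20873580) and TotB (3R:20873938-20874522), all on the plus strand, with 1287 bases between TotA and TotC and 357 between TotC and TotB. TotX (3R:20904917-20905518, minus strand) lies further along the arm, and TotM (2L:5329857-5330464, plus strand) on another chromosome. TotA was abundant, at 592, 690.2 and 675 CPM in cdk8K185, against 428, 494 and 642 CPM in w1118. The highest control library lay above the lowest mutant library, and the log2 fold change of 0.32, with a 95% interval from -0.07 to 0.71, did not pass the threshold (edgeR adjusted p 0.161). It did so without w1118 replicate 3, the highest control library (log2 fold change 0.52, edgeR adjusted p 0.0328), and with library totals as scaling (edgeR adjusted p 0.0236 at a log2 fold change of 0.55). Per kilobase of annotated exon, TotA ranked 75 in cdk8K185 and 130 in w1118 among 10587 genes.

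TotC was the only one of the 2 tested Turandot genes that was called. It had 385, 149 and 314 counts in cdk8K185, against 25, 26 and 59 counts in w1118, or 32.5, 14.6 and 27.0 CPM in cdk8K185, against 2.36, 2.58 and 6.35 CPM in w1118. The lowest mutant library was above the highest control library. The log2 fold change was 2.73 ± 0.46 SE, a 6.63-fold difference (edgeR adjusted p 0.00512), and it was called in all 13 alternatives, with log2 fold changes from 2.46 to 3.33. Within the summed counts of the 5 Turandot genes, which no scaling can alter, TotC made up 5.20% in cdk8K185 replicate 1 (95% Wilson interval 4.72% to 5.73%), 2.07% in replicate 2 (1.76% to 2.42%) and 3.84% in replicate 3 (3.45% to 4.28%). In w1118 the share was 0.549% in replicate 1 (0.372% to 0.81%), 0.519% in replicate 2 (0.355% to 0.76%) and 0.981% in replicate 3 (0.761% to 1.26%). These intervals cover counting error only. The mean share was 5.42 times as large in cdk8K185 (exact permutation test, two-sided, p = 0.1, the smallest this design gives). TotC was wholly apart, and TotA, which made up most of these counts, differed less, so this share had to separate too. Its p-value was thereby fixed and adds nothing to the values of the single genes.

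**Figure D3:**
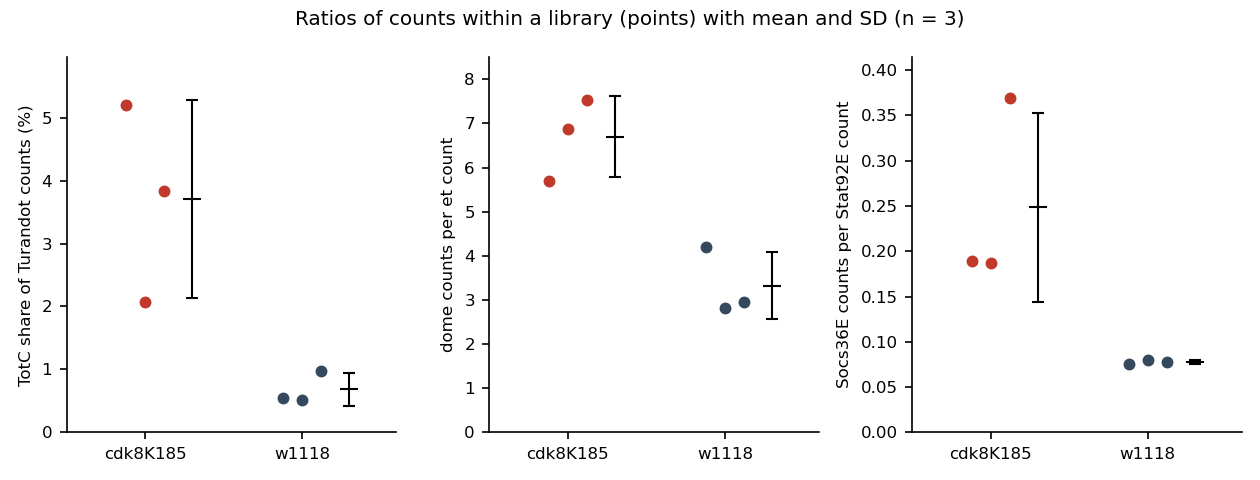
Ratios of counts within a library, which do not depend on scaling (vertical axes, each starting at 0), for 3 cdk8K185 libraries (red) and 3 w1118 libraries (dark), with the mean and SD. The TotC share of Turandot counts is 2.07% to 5.20% in cdk8K185 and 0.519% to 0.981% in w1118, and the ratios of dome to et and of Socs36E to Stat92E are also higher in every cdk8K185 library. For dome to et and Socs36E to Stat92E this follows from the single genes, which were already apart in opposite directions. The TotC share follows from the single genes too, since TotC was apart and TotA, most of the Turandot counts, differed less.

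The remaining Turandot genes were at or near the limit of detection, taken as 3 counts or 0.253 to 0.323 CPM. TotB had 6, 4 and 5 counts in cdk8K185, against 0, 2 and 0 counts in w1118. It did not pass the default filter, and when every gene with at least 1 count was kept it was not called (edgeR adjusted p 0.0901). Its summed 15 counts in cdk8K185, against 2 in w1118, gave a ratio of 6.67 after scaling, with an exact 95% interval for counting error of 1.55 to 60.1. TotM had 1 count, in cdk8K185 replicate 3, and TotX had none in any library, so no fold is given for either. Of the other Turandot genes, TotE had 1 count, TotF had 2 and TotZ had 3 in the cdk8K185 libraries together, and all were without a count in w1118. None of the 3 passed the default filter, and with at least 1 count in some library edgeR called 0 of them. Turandot genes resemble each other in sequence, and how reads that match several genes were counted is not given in the sources used here, so the split of reads among TotA, TotB and TotC is uncertain.

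Per kilobase of annotated exon, which allows genes to be compared, the 8 genes with more than 1 count lay between TotA and upd2 or TotB. In cdk8K185 the levels were 1127 ± 91.6 CPM per kb for TotA, 55.1 ± 5.06 for Stat92E, 46.6 ± 17.3 for TotC, 20.0 ± 6.87 for Socs36E, 19.6 ± 1.98 for dome, 2.17 ± 0.525 for upd3, 0.842 ± 0.112 for TotB and 0.728 ± 0.195 for upd2 (SD, n = 3 each). In w1118 they were 900.1 ± 189 CPM per kb for TotA, 67.7 ± 4.57 for Stat92E, 13.8 ± 2.25 for dome, 7.85 ± 0.485 for Socs36E, 7.10 ± 4.23 for TotC, 0.252 ± 0.0345 for upd2, 0.241 ± 0.21 for upd3 and 0.126 ± 0.218 for TotB. TotC therefore stood beside Stat92E in the mutant and beside Socs36E in the control. Within a genotype, neighbours whose levels did not differ beyond their spread were Stat92E and TotC, Socs36E and dome, and TotB and upd2 in cdk8K185, and Socs36E and TotC, and upd2, upd3 and TotB in w1118.

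The mutant libraries did not rank alike for all of these genes. The highest cdk8K185 library was replicate 3 for upd1, upd3, dome and Socs36E. For TotC it was replicate 1, and for TotA and upd2 it was replicate 2, which was also the highest for most of the heat shock genes below. Among the genes described below, replicate 3 was also the highest mutant library for Ets21C and AttA, and replicate 1 for Tep1 and egr.

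Known responders to JAK-STAT signalling went in both directions. This list held 10 genes, of which 9 were tested, and 4 were higher and 2 lower in cdk8K185. That is 66.7% called against 36.9% of all genes, 44.4% higher against 19.9% and 22.2% lower against 17%. The median log2 fold change of the list was 0.80. Listericin, which encodes an antibacterial protein, was at 223, 286 and 239 CPM in cdk8K185, against 6.33, 7.24 and 5.49 CPM in w1118. Its genotypes were far apart, with a log2 fold change of 5.29 ± 0.16 SE (edgeR adjusted p 6.95e-06). Ilp8, a relaxin-like peptide that disturbed imaginal discs release to delay metamorphosis, had 31, 60 and 81 counts in cdk8K185, against 2, 1 and 0 counts in w1118. The summed counts, 172 in cdk8K185 and 3 in w1118, gave a scaled ratio of 51.0 with an exact 95% interval for counting error of 17.1 to 249.5. Ilp8 was called (edgeR adjusted p 0.00133), and like upd3 it passed the filter through the mutant alone.

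The gene chinmo, a STAT target in several tissues that encodes a BTB-domain transcription factor, was at 107 ± 26.6 CPM in cdk8K185 and 46.6 ± 9.70 CPM in w1118 (SD, n = 3 each, edgeR adjusted p 0.00712 at a log2 fold change of 1.20 ± 0.23 SE). Tep1, a thioester protein gene, was also higher (edgeR adjusted p 0.0381 at a log2 fold change of 0.95 ± 0.28 SE), but the call held without cdk8K185 replicate 2 and was lost without any other single library (edgeR adjusted p 0.0675 to 0.103). On the other hand, vir-1, which virus infection induces through this pathway, fell to 233, 223 and 234 CPM in cdk8K185, against 405, 418 and 471 CPM in w1118 (edgeR adjusted p 0.000762 at a log2 fold change of -0.91 ± 0.10 SE). Tep2, another thioester protein gene, was lower as well (edgeR adjusted p 0.00624 at a log2 fold change of -0.65 ± 0.12 SE). Tep4, zfh1 and CG13559 were not called, at log2 fold changes of 0.03, -0.43 and 0.80, and Diedel had 1 count in all.

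The list of stress kinase genes held genes of the JNK and p38 pathways and other regulators, among them Rel and foxo. They are known to act upstream of the unpaired or Turandot genes, and they were mostly not called. Of 21 genes tested, 8 were higher and none lower at this threshold in edgeR. At an unadjusted p under 0.05 in edgeR 1 was lower, foxo, and by DESeq2 or limma-voom 0 were lower. The edgeR calls are 38.1% higher against 19.9% of all genes and 0% lower against 17%, or 38.1% in either direction against 36.9%. The median log2 fold change of the list was 0.11. Of the 13 genes not called, 7 had negative log2 fold changes. Ets21C, a transcription factor gene that JNK signalling induces, was at 6.84, 7.83 and 12.4 CPM in cdk8K185, against 2.27, 1.89 and 1.62 CPM in w1118 (edgeR adjusted p 0.00141 at a log2 fold change of 2.22 ± 0.29 SE). The gene for the kinase p38c was next, at 36.0, 26.6 and 33.4 CPM in cdk8K185, against 6.24, 11.0 and 11.5 CPM in w1118 (edgeR adjusted p 0.0019 at a log2 fold change of 1.74 ± 0.24 SE). The JNK phosphatase gene puc, itself a JNK target, was at 120 ± 6.81 CPM in cdk8K185 and 65.6 ± 4.98 CPM in w1118 (SD, n = 3 each, edgeR adjusted p 0.000669 at a log2 fold change of 0.87 ± 0.10 SE), and p38a had a log2 fold change of 0.82 (SE 0.09, edgeR adjusted p 0.000848).

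Smaller increases were called for egr (the TNF ligand), p38b, kay (the fly Fos) and Mekk1, which acts upstream of TotA in stressed flies. The egr call was lost without w1118 replicate 1 (edgeR adjusted p 0.0515), the kay call without cdk8K185 replicate 2 (0.0508), and the Mekk1 call in 5 of 6 such refits, all but the one without w1118 replicate 1 (0.074 to 0.106). DESeq2 (adjusted p 0.0549) did not call Mekk1 either. The genes for the core JNK kinases and for Jun were not called, at log2 fold changes of 0.16 for bsk, -0.13 for hep and 0.11 for Jra (edgeR adjusted p 0.17, 0.318 and 0.303).

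Heat shock and antimicrobial peptide genes, which share inducing stimuli with the Turandot genes, differed in opposite directions. Of 6 heat shock genes tested, 4 were lower and none higher in edgeR (also 0 at an unadjusted p under 0.05 and 0 by DESeq2 or limma-voom). That is 66.7% lower against 17% of all genes, and 0% higher against 19.9%. Hsp23, a small heat shock protein gene, was at 75.4, 184 and 161 CPM in cdk8K185, against 1808, 990.1 and 1849 CPM in w1118 (edgeR adjusted p 0.00136 at a log2 fold change of -3.46 ± 0.42 SE). Hsp26 (log2 fold change -3.03), Hsp27 (-1.97) and Hsp68 (-1.93) were lower as well, although the Hsp68 call was lost without cdk8K185 replicate 1 or 3 or w1118 replicate 1 or 2 (edgeR adjusted p 0.078 to 0.1). Among the mutant libraries, cdk8K185 replicate 2 was the highest for every heat shock gene tested except Hsp27. Hsp83 was at 571, 2462 and 1031 CPM in cdk8K185, against 1283, 1061 and 1018 CPM in w1118, and Hsp68 at 8.53, 31.5 and 8.85 CPM in cdk8K185, against 82.6, 52.6 and 49.8 CPM in w1118. Without cdk8K185 replicate 2 the log2 fold change was -2.82 for Hsp68 and -3.70 for Hsp26. In sum, the heat shock genes made up 863 to 3148 CPM in cdk8K185, against 2860 to 4353 CPM in w1118. Hsp22 had no count in any library.

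Of 12 antimicrobial peptide genes tested, 10 were higher and none lower in edgeR, while 1 was lower at an unadjusted p under 0.05, by DESeq2 and by limma-voom. In edgeR that is 83.3% higher against 19.9% of all genes, and 0% lower against 17%. The median log2 fold change of the list was 4.28, or 3.85 with CecA1 and CecC at the lower bound set by 3 counts in each w1118 library, against 0.02 over all genes. The called genes were AttA, AttB, AttC, AttD, CecA1, CecC, DptA, DptB, Dro and Def, and AttC, AttD, CecA1, CecC and Def passed the filter through the mutant alone. DptB reached the filter's minimum in 1 w1118 library and Dro in 2, so these also needed the mutant libraries in order to be tested. AttA was at 83.5, 68.9 and 160.4 CPM in cdk8K185, against 2.27, 2.18 and 3.12 CPM in w1118 (edgeR adjusted p 0.000297 at a log2 fold change of 5.37 ± 0.42 SE), and CecC had 162, 245 and 153 counts in cdk8K185, against 3, 3 and 0 counts in w1118. Mtk (log2 fold change -1.68, edgeR adjusted p 0.0518) and Drs (1.57, edgeR adjusted p 0.0614) were not called. The list summed to 265 to 519 CPM in cdk8K185, against 33.9 to 48.1 CPM in w1118. CecB, with 18, 4 and 4 counts in cdk8K185 and none in w1118, did not pass the default filter. With at least 1 count in some library it was called higher (edgeR adjusted p 0.0222).

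**Figure D4:**
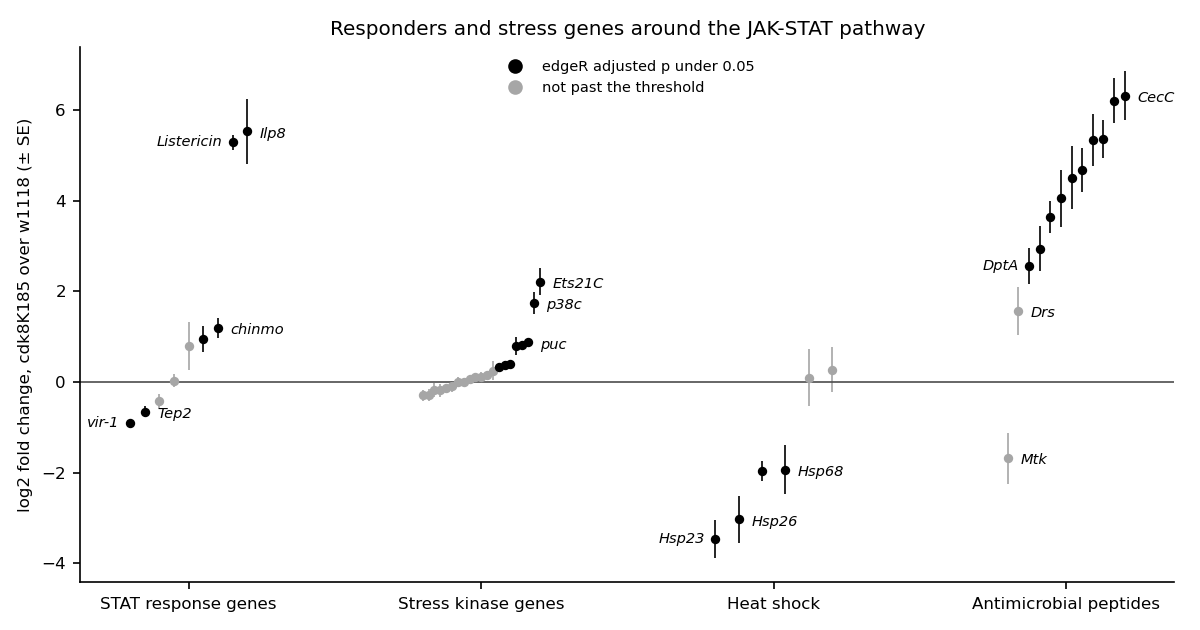
Log2 fold change of cdk8K185 over w1118 (vertical axis, with SE) for the tested genes of 4 lists, in black where the edgeR adjusted p was under 0.05 and in grey where it was not. Listericin and Ilp8 stand above the other STAT response genes, Ets21C and p38c above the other stress kinase genes, 4 heat shock genes lie below 0, and 10 antimicrobial peptide genes lie above 2.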

How the data were processed

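RNA-seq was carried out on whole wandering larvae, with 3 libraries of cdk8K185 and 3 of w1118. The authors deposited raw counts per gene, and the submitters' processing notes name STAR, featureCounts, DESeq2 and the dm6 build. Versions, annotation, strand and multi-mapping settings are not given in the sources used here, so overlapping or similar genes are uncertain. Symbols and positions came from the BDGP6.54 annotation (dm6 coordinates), which matched 17477 of 17562 identifiers.

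The genotypes were compared by edgeR 4.0.16 (R 4.3.3) with filterByExpr defaults (minimum count 10, minimum total count 15), TMM factors, robust glmQLFit and glmQLFTest with genotype as the only term, two-sided, and Benjamini-Hochberg adjustment over 10632 genes at 0.05. SE is the absolute log2 fold change over the square root of F. A floor of 3 counts marked detection. The same code was tested on simulated data. Where nothing says that pools were independent, p-values measure only the spread between libraries. No 2 libraries agreed within sampling noise (chi-square per degree of freedom 17.9 to 43.7).

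Alternatives were DESeq2 1.42.0, limma-voom (limma 3.58.1), RLE factors, library totals, filters of at least 1 count in some library and 10 in every library, a block for the replicate number, and refits without each of the 6 libraries. Genes and lists were chosen with earlier results of these data known. All 10 genes are named, and from each list the called genes, with values for up to 4 and for some others chosen after their values were seen. Figures used Python 3.11.15 and matplotlib 3.10.9.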

Additional observations from a re-analysis of the deposited data

How the results depend on the processing

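The count of all genes called stayed within 1.5 times of 3919 under every alternative run, from 2746 without cdk8K185 replicate 1 to 4655 with library totals, where 74.2% of the called genes were higher against 53.9% with TMM (44.3% with DESeq2). Of the 10 Turandot and JAK-STAT genes, 5 were called, against 3 with at least 10 counts in every library (dome, Socs36E and TotC, by construction since upd2 and upd3 were not tested there), 6 with library totals (TotA added) and 2 to 4 with a library left out, the 2 being Socs36E and TotC without cdk8K185 replicate 1. The other JAK-STAT genes gave 6 calls, and 3 to 6 with a library left out. The heat shock and antimicrobial peptide genes gave 14 calls, and 6 with at least 10 counts in every library, where 10 were tested in place of 18 and Hsp68, though tested, was not called (edgeR adjusted p 0.0509). STAT response and stress kinase genes kept counts of 5 to 6 and 6 to 10. The value of hop turned to 0.19 with library totals, which raised all genes by a median of 0.22. With at least 1 count in some library it turned to 0.0066, and that setting raised the genes tested in both fits by a median of 0.023. The value was also above 0 in 3 refits without a library (cdk8K185 replicate 3, w1118 replicate 1 or w1118 replicate 2), with a range of -0.11 to 0.067 over the 6 refits. The cause of the changes of sign in the 3 refits was not tested. Whether replicate numbers pair the libraries was not settled. Deviations from the genotype means correlated at -0.19, 0.51 and 0.56 for numbers 1, 2 and 3. Libraries with different numbers correlated at -0.61 to 0.27. With the replicate block 3988 genes were called, 1906 higher and 2082 lower, and the same 5 of the 10 genes, while Mekk1 (0.0588), Hsp68 (0.0599), Lsp1gamma (0.0836), rn (0.0554) and Cdk8 (0.0534) had edgeR adjusted p values above 0.05. RLE factors did not call Mekk1 either (0.067). At this depth TotX was not detected, and TotB, TotM, upd2 and upd3 rested on few counts.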
